A study of Homo sapiens with 2 samples.

Results

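The 36 genes described here lie on human chromosome 20 and were chosen by name as a set whose summed RNA can be read as a measure of that chromosome's dose in single A549 cells. They are 36 of the 36601 genes in the count tables, 10 on the short arm (20p) and 26 on the long arm (20q). The list was drawn up with results of these same cells known, and the values behind the choice are not stated with it. Their shared variation is therefore a description, and no test was made of it. A549 is an established line of human lung adenocarcinoma, labelled epithelial (CCL-185). The control group was kept in 2D culture, and the squashed group was confined with polydimethylsiloxane (PDMS) micropillars. Both groups were sorted alive for cells that had lost their chromosome reporter, 48 h into recovery, both carry the same batch label, and each is 1 library, so no difference between them has a replicate check. The labels do not name the chromosome that bears the reporter, and cells that kept it were not analysed here.

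A cell that gains or loses a whole chromosome changes the number of templates for all of its genes at once, and for most of them the RNA moves roughly with the number of copies. Tumour lines such as A549 have unstable karyotypes, and the chromosome 20 long arm is among the regions often gained in epithelial cancers. A sum over many genes of one chromosome can show such a change where a single gene cannot, because droplet counts of a single gene are sparse, but the sum also moves whenever those genes share a program such as growth or mitosis. The 36 genes serve basic functions of nearly every cell. They build the spliceosome and the nucleolus, carry proteins through the endoplasmic reticulum and the nuclear pore, fold and degrade proteins, or work in metabolism.

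Values below come from cells with at least 10000 unique molecular identifiers (UMIs, one per captured RNA molecule), 1190 of 2574 control barcodes and 906 of 3132 squashed barcodes. These cells had a median of 16717 and 17090 UMIs, 3341 and 3298 genes, and 7.62% and 9.34% mitochondrial UMIs. Of 5 epithelial markers, the keratins KRT8 and KRT18 were abundant, with KRT18 the highest marker in the control library (1721 CPM, a gene's UMIs out of every 1000000 of the library) and KRT8 in the squashed library (1238 CPM). The other three were under 20 CPM: CDH1 stood at 8.66 and 4.71 CPM, KRT19 at 2.78 and 3.01 CPM, and EPCAM at 0.22 and 0 CPM, where 0 UMIs allow up to 0.17 CPM. The 6 fibroblast markers summed to 8.70 and 7.37 CPM and the 5 immune markers to 13.1 and 21.5 CPM, nearly all of it CD68. The 4 endothelial markers summed to 45.1 and 10.4 CPM, nearly all of it EGFL7. The libraries shared 4 barcodes, none of them among these deeper cells. The intervals given are 95% exact Clopper-Pearson intervals and cover counting error only.

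Upstream sequence is shown for 3 genes on which the results turn: PDRG1, which followed the other arm in both libraries, PFDN4, which was among the genes closest to the other members, and PPDPF, which differed most between the libraries. These are the 250 bases before the RefSeq gene start in GRCh38.p14, 5′ to 3′ on the strand of the gene. PDRG1 lies at chr20:31952047-31952296 on the minus strand, PFDN4 at chr20:54207837-54208086 and PPDPF at chr20:63520491-63520740 on the plus strand. Capitals mark matches on either strand to a GC box (GGGCGG), to an ETS motif (CCGGAAG) or to the CCAAT box, spelled by its name.
PDRG1: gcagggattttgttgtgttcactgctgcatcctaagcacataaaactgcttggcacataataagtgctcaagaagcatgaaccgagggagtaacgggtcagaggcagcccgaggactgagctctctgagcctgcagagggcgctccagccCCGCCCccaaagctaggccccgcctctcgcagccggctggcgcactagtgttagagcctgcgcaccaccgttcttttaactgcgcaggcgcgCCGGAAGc
PFDN4: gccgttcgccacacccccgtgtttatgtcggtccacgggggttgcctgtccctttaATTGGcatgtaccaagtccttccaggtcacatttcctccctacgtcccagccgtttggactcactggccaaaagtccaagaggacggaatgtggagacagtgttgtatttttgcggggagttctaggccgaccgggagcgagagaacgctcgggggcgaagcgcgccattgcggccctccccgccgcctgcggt
PPDPF: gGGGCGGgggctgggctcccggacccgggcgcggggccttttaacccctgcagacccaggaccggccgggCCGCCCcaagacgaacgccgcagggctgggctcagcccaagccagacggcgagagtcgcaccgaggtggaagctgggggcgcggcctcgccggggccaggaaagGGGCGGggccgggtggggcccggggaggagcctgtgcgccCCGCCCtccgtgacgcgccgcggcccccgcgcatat
The PDRG1 window held 1 ETS match at its downstream end and 1 GC box, the PFDN4 window 1 CCAAT box, and the PPDPF window 4 GC boxes. RefSeq windows were matched for 34 of the 36 genes, all but RBM39 and NDRG3. Of these 34, 13 (38.2%) held the ETS motif, against 8.82% of 27305 gene windows of the same length. Those windows were not limited to genes measured in these cells, and no matching on level was made. The contrasts here thus cannot be read as a trait of chromosome 20. The CCAAT box was in 10 (29.4% against 33.0%), the GC box in 18 (52.9% against 42.3%), and the E-box CACGTG in none (6.49% of all). The GC content of the 34 windows had a median of 61.4%, against 58.0% for all, and that of PPDPF was 78.8%. A match to these letters is a description of the window, and factor binding was not measured.

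In the summed counts the 36 genes made up nearly the same part of both libraries, 4847 CPM for control and 4742 CPM for squashed cells (log2 ratio -0.03, interval -0.04 to -0.02). The 20p genes summed to 1963 and 1880 CPM and the 20q genes to 2884 and 2862 CPM. A gene was called measured with at least 20 CPM in either library, and 32 of the 36 were. NAPB, AAR2, NDRG3 and CSTF1 were below that level and are shown without a call. Of the 32, 3 were at least 1.5-fold lower in the squashed library, where 10.6% of all 4465 measured genes were, and 3 were at least 1.5-fold higher, where 3.63% of all were. No test of these counts was made. At least 2-fold, 2 were lower (4.43% of all genes) and 1 higher (1.03% of all). The median log2 ratio of the 32 was -0.06, and that of all measured genes was -0.08. With counts scaled by TMM the medians were 0.03 and 0.01, so the sign of each median depends on the scaling.

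PPDPF differed most. It encodes a small protein named for a role in differentiation of the exocrine pancreas, and its gene lies near the end of 20q (chr20:63520765-63522206 in the GENCODE annotation of GRCh38). It stood at 221.9 CPM (5101 UMIs) in control and 25.6 CPM (452 UMIs) in squashed cells, a log2 ratio of -3.11 (-3.26 to -2.97). A PPDPF molecule was found in 86.8% of control and 23.0% of squashed cells when every cell was thinned to 10000 UMIs. Of the 6 measured genes within 1 Mb of it, 3 were at least 1.5-fold lower, where 10.6% of all measured genes were, and none was higher. Their median log2 ratio was -0.57, and their lowest was ARFRP1 (-1.73). PRPF6, a further member and neighbour, stood at 84.3 and 86.4 CPM (0.03, -0.06 to 0.13). PRPF6 apart, the measured neighbours of PPDPF were thus below 0 as well, though none was as low as PPDPF.

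FKBP1A, the prolyl isomerase that binds the drug FK506, was the other gene past 2-fold lower. It had 242.0 CPM in control and 111.4 CPM in squashed cells (-1.12, -1.19 to -1.04). Of 5 measured neighbours within 1 Mb, RBCK1 was lower (-1.54) and the other four were within 1.5-fold. SRSF6, a splicing factor of the serine and arginine-rich family, was lower at 46.5 and 31.0 CPM (-0.59, -0.74 to -0.44), just past the 1.5-fold line. PPDPF and FKBP1A stayed past 1.5-fold in all 9 alternative choices of cells and scaling, whereas SRSF6 did in 5 of 9.

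ROMO1, a mitochondrial inner membrane protein that modulates reactive oxygen species, was the only member at least 2-fold higher. It had 159.7 CPM in control and 417.7 CPM in squashed cells (1.39, 1.33 to 1.44) and stayed past 1.5-fold in all 9 alternatives. None of its 14 measured neighbours within 1 Mb was past 1.5-fold in either direction. ROMO1 overlaps NFS1 in the annotation, and whether counting used the strand is not stated, so reads of the pair may not be told apart. CRNKL1, a spliceosome scaffold, had 22.7 and 37.0 CPM (0.71, 0.54 to 0.88) and DDX27, a nucleolar RNA helicase, 82.6 and 125.8 CPM (0.61, 0.52 to 0.70). They stayed past 1.5-fold in 7 and 6 of 9 alternatives. The limit of overlap holds for CRNKL1 (with CFAP61), for DDX27 (with ZNFX1, log2 ratio 0.55) and for FKBP1A (with SDCBP2-AS1) as well.

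**Figure D1:**
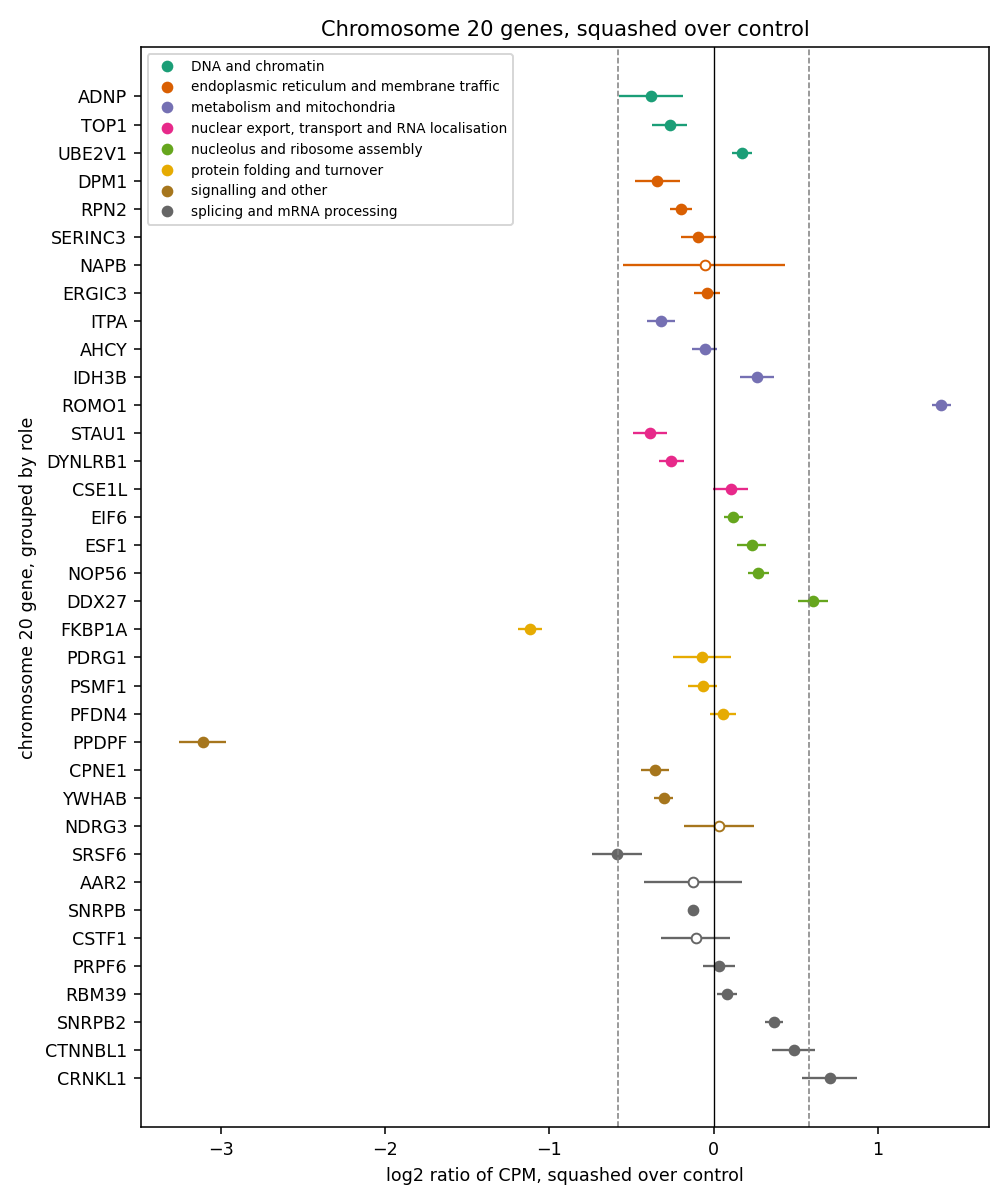
Log2 ratio of CPM, squashed over control, for each of the 36 genes, grouped and coloured by role, with 95% counting intervals and dashed lines at 1.5-fold. Open circles are the 4 genes under 20 CPM in both libraries. PPDPF and FKBP1A lie far to the left and ROMO1 far to the right, and most other genes lie within the dashed lines.

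By role, the 7 measured splicing and mRNA processing genes had a median log2 ratio of 0.08, with 1 lower (SRSF6) and 1 higher (CRNKL1). Among them SNRPB, which encodes the Sm proteins B and B′ at the core of the spliceosomal small nuclear ribonucleoproteins, was by far the most abundant member. It had 885.8 and 813.8 CPM (-0.12, -0.15 to -0.09), which is 18.3% and 17.2% of all UMIs of the 36 genes. SNRPB2, the U2 protein B″, had 229.5 and 296.3 CPM (0.37, 0.31 to 0.42), and CTNNBL1, a protein of the Prp19 complex, 40.2 and 56.4 CPM (0.49, 0.36 to 0.62). RBM39, a U2AF-like splicing factor, had 206.9 and 218.7 CPM. SNRPB, SNRPB2, CTNNBL1 and RBM39 were thus within 1.5-fold between the libraries, though CTNNBL1 was past that line in 3 of 9 alternatives.

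The 4 nucleolar and ribosome assembly genes had log2 ratios above 0, with a median of 0.25, beside -0.08 for all measured genes. The share of all measured genes above 0 was not counted. ESF1 changed sign in 2 of 9 alternatives and the other three in none. NOP56, a core protein of the box C/D particles that methylate ribosomal RNA, had 181.5 and 219.1 CPM (0.27, 0.21 to 0.34). EIF6, which keeps the large ribosomal subunit from joining too early, had 233.0 and 253.1 CPM (0.12, 0.06 to 0.18), and ESF1, a factor for early processing of pre-ribosomal RNA, 95.8 and 112.7 CPM (0.23, 0.15 to 0.32). Of these 4 only DDX27 was past 1.5-fold. Their partners on other chromosomes (10 box C/D and nucleolar genes, such as NOP58, FBL and NCL) had a median of 0.15 with none past 1.5-fold. The partners did not all go the same way. NPM1, the most abundant of them, was lower (2428 and 2028 CPM, -0.26, -0.28 to -0.24). EBNA1BP2 was at -0.07 with an interval that spanned 0, and the rest were above 0.

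The 4 measured genes of the endoplasmic reticulum and membrane traffic had a median of -0.15, beside -0.08 for all measured genes, and none was past 1.5-fold. RPN2, a subunit of the oligosaccharyltransferase that attaches sugar chains to new proteins, had 186.5 and 162.6 CPM (-0.20). DPM1, which makes the mannose donor of that pathway, had 50.6 and 39.9 CPM (-0.34). ERGIC3, a cargo receptor between the endoplasmic reticulum and the Golgi, had 127.8 and 124.2 CPM. The intervals of ERGIC3 and SERINC3 spanned 0, and ERGIC3, SERINC3 and RPN2 changed sign in 2, 2 and 1 of 9 alternatives. The 10 oligosaccharyltransferase partners on other chromosomes had a median of -0.17, with 1 higher and none lower.

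The 3 transport genes spanned -0.39 to 0.11: STAU1, a double-stranded RNA-binding protein of RNA transport, was lowest at 86.5 and 66.1 CPM, and CSE1L, the exporter that returns importin alpha to the cytoplasm, stood at 67.5 and 72.6 CPM. TOP1, the topoisomerase that relaxes DNA ahead of polymerases, had 80.9 and 67.3 CPM (-0.27). ADNP, a homeobox protein of chromatin complexes, had 25.2 and 19.3 CPM (-0.38). UBE2V1, a partner of the UBC13 ubiquitin enzyme, had 193.0 and 217.8 CPM (0.17). None of these 6 was past 1.5-fold.

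In metabolism, AHCY, which clears S-adenosylhomocysteine after methylation reactions, had 151.3 and 145.7 CPM. IDH3B, a subunit of the citric acid cycle's NAD-dependent isocitrate dehydrogenase, had 69.5 and 83.5 CPM (0.27), and ITPA, which hydrolyses inosine triphosphate, 126.6 and 101.4 CPM (-0.32). Among the folding genes PSMF1, a proteasome inhibitor, had 106.3 and 101.5 CPM, PFDN4, a prefoldin subunit, 130.5 and 135.8 CPM, and PDRG1, a prefoldin-like protein, 27.2 and 25.9 CPM. All 3 intervals spanned 0. YWHAB, a 14-3-3 protein that binds phosphorylated partners, had 271.6 and 219.9 CPM (-0.30), and CPNE1, a calcium-dependent membrane-binding protein, 127.6 and 99.7 CPM (-0.36).

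Per cell, with every cell thinned to 10000 UMIs, the 36 genes took a median of 0.50% of UMIs in the control library, from 0.07% to 1.04%. In the squashed library the median was 0.48%, from 0.09% to 1.02%. These are medians of 50 and 48 UMIs a cell, so counting alone spreads the share, and the variance over cells was 4.55 and 4.42 times that of binomial counting. The 20p genes (median 0.20% and 0.19%) varied more beyond counting than the 20q genes (0.30% and 0.29%), with variance ratios of 4.40 and 4.11 against 2.27 and 2.30. The 2 libraries overlapped over nearly their whole range.

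The share followed the cell cycle call. In the control library it was 0.37% in 427 cells called G1, 0.46% in 59 called S and 0.58% in 704 called G2/M, and in the squashed library 0.36%, 0.43% and 0.57% in 345, 63 and 498 cells. The order of the phases was the same in both libraries and the ranges overlapped. Within each phase the variance was still 2.19 to 3.33 times that of counting.

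**Figure D2:**
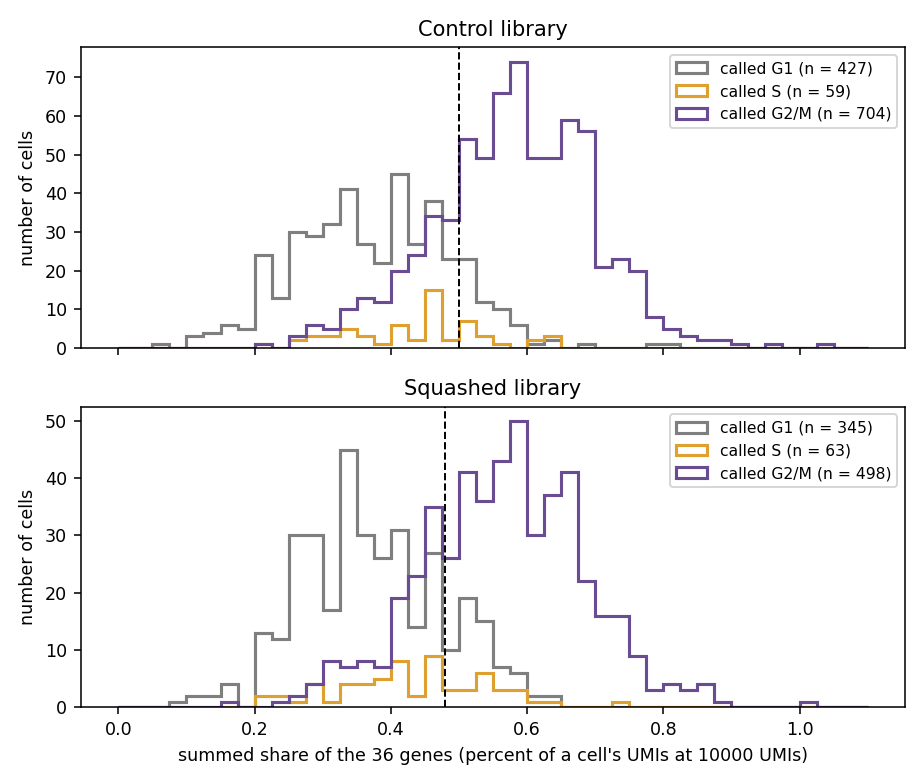
Number of cells by the summed share of the 36 genes, in percent of a cell's UMIs at 10000 UMIs, for each library and each cell cycle call. The dashed line is the library's median, 0.50% in the control and 0.48% in the squashed library, and the cells called G2/M lie to the right of those called G1 in both.

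Many single genes were higher in cells called G2/M as well, and so were many genes outside the list. Over summed cells, the CPM of all 36 in cells called G2/M over those called G1 had a log2 ratio of 0.63 in the control library and 0.60 in the squashed library. The interval was above 0 for 26 and 24 of the 36 genes, where 48.6% and 51.2% of all measured genes were, and for 22 in both libraries (40.7% of all). It was below 0 for 6 and 4 (28.6% and 17.6% of all), 2 of them in both (15.1%). The 36 have higher counts than most genes, which narrows their intervals, and no matching on level was made. The median gene had 0.54 and 0.72, against 0.22 and 0.33 for all measured genes. At least 2-fold higher in G2/M in both libraries were 6 of the 36, CSE1L, NOP56, PDRG1, PFDN4, SNRPB and TOP1, where 12.8% of all measured genes were, a share near the background.

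SNRPB went from 362.8 CPM in G1 to 1331 CPM in G2/M in the control library (1.87) and from 401.4 to 1165 CPM in the squashed library (1.54). PDRG1 went from 8.90 to 45.5 CPM (2.34) and from 10.4 to 43.8 CPM (2.05), and CSE1L from 24.8 to 95.7 CPM (1.94) and from 27.8 to 105.2 CPM (1.91). ERGIC3 ran the other way, from 171.4 to 102.7 CPM (-0.74) and from 171.0 to 92.8 CPM (-0.88), as did SERINC3, a membrane protein of the serine incorporator family, from 93.7 to 57.7 CPM (-0.70) and from 78.6 to 56.2 CPM (-0.48). The list thus held genes of opposite direction in the cycle.

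**Figure D3:**
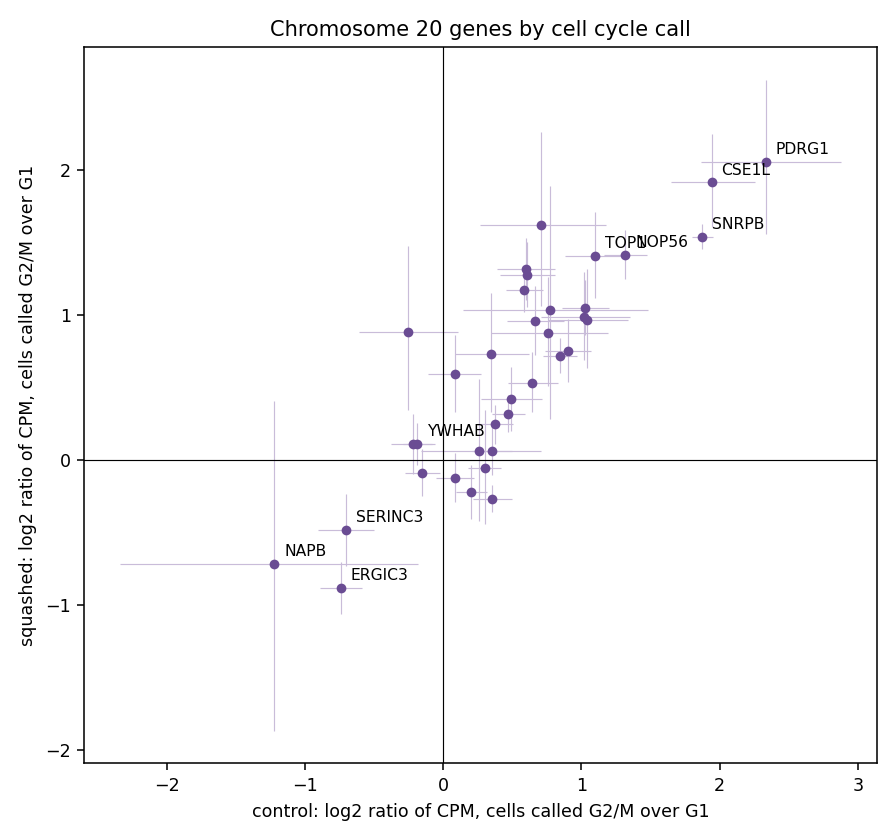
Log2 ratio of CPM in cells called G2/M over cells called G1 for each of the 36 genes, control on the horizontal and squashed on the vertical axis, with 95% counting intervals. PDRG1, CSE1L and SNRPB lie at the upper right, ERGIC3 and SERINC3 at the lower left, and these genes lie on the same side of 0 in both libraries.

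To read the genes as a dose, each cell's summed members were divided by its UMIs over 6026 reference genes (10 to 500 CPM, on a known arm, without cycle genes) and by the library's median. The coefficient of variation of this dose was 0.25 in both libraries, and counting alone gives 0.15. A dose under 0.75 was found in 191 of 1190 control cells (16.1%, interval 14.0 to 18.3) and 149 of 906 squashed cells (16.4%, interval 14.1 to 19.0). The intervals overlap. There was no gap at this line, since 97 control and 84 squashed cells lay between 0.70 and 0.80. Both arms were low together in 7.98% and 7.62% of cells, where independent arms would give 4.71% and 4.41%. The arms share each cell's divisor, and the members' share followed the cell cycle call. Independence is therefore no clean baseline here, and the excess was not tested.

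The arms moved together only weakly. Over cells, the summed 20p and 20q members correlated with Pearson r = 0.15 in the control library (n = 1190) and 0.13 in the squashed library (n = 906). These points share the cell's depth and divisor, and in counts this sparse a weak correlation is no finding. Among cells with at most 10% mitochondrial UMIs the values were -0.003 and 0.02, and with all UMIs as divisor 0.44 and 0.46, so the unadjusted value depends on which cells and divisor are used. When all reference genes of each arm were summed, 20p and 20q reached 0.35 and 0.37, rank 5 and 6 of 820 pairs of arms, where the median pair was at -0.03 and -0.02.

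Gene by gene, a member was said to follow the other arm when its r with the other arm's members passed the 95th percentile of measured genes outside chromosome 20. In the control library 2 of 36 did, where 5.2% of all measured genes passed that line for the 20p sum and 5.31% for the 20q sum. In the squashed library 3 of 36 did, where 5.26% and 5.22% passed. These counts are at the background for the main choice of cells and divisor. Some alternatives, given in the closing section, had more. PDRG1 was the only member to follow the other arm in both libraries (r = 0.30 and 0.26), where 3.58% of all measured genes passed in both for the 20p sum and 4.39% for the 20q sum. FKBP1A (0.27) followed in the control library, and DDX27 (0.26) and PFDN4 (0.23) in the squashed library. CSE1L, at 0.24 and 0.21, was short of the line in both. Against the other chromosome 20 genes, unadjusted, 5 of 36 passed in each library, where 5.8% and 6.32% of all measured genes did. Of these only RBM39 passed in both (0.23 and 0.20), where 2.73% of all did.

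At the other end, ERGIC3 (-0.24 and -0.23), SERINC3 (-0.21 and -0.19), YWHAB (-0.16 and -0.12) and RPN2 (-0.13 and -0.11) had a negative r with the short arm's members in both libraries. The share of all measured genes with an r this low was not counted, and weak correlations of this size are no finding. ERGIC3 and SERINC3 are also the genes that were lower in G2/M in both, and SNRPB, which is much higher in G2/M, makes up much of the 20p sum. The 36 values of r agreed between the libraries with Pearson r = 0.87 and Spearman rho = 0.87 over genes, which are not independent replicates. Of 496 pairs of measured members, the lowest in the control library was SNRPB with ERGIC3 (-0.29) and the highest FKBP1A with PPDPF (0.33). In the squashed library the pairs ran from ROMO1 with RBM39 (-0.26) to ERGIC3 with ROMO1 (0.42).

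Outside the list, the 10 genes most like the member dose, by the highest mean r, were NPM1 (0.45), PTTG1 (0.44), PSMA7 (0.44), RAN (0.43), BIRC5 (0.42), CYCS (0.41), CCNB1 (0.41), AURKA (0.40), POLR2L (0.39) and PTMA (0.39), of which PSMA7 and AURKA lie on chromosome 20. PTTG1 (securin), BIRC5 (survivin), CCNB1 (cyclin B1) and AURKA (Aurora A kinase) act in mitosis, while PSMA7 is a proteasome subunit, CYCS is cytochrome c and POLR2L is an RNA polymerase subunit. Of the 100 genes with the highest r, 8 in the control library and 10 in the squashed library lay on chromosome 20, which holds 2.26% of the 4433 measured genes outside the list. The chromosome 20 genes least like it were CYP24A1 (-0.27 and -0.08) and TGM2 (-0.20 and -0.09), the vitamin D hydroxylase and a transglutaminase.

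The 25% of cells with the lowest member dose (the low group) and the 25% with the highest (the high group) differed in state as well. The high group was called G2/M in 83.5% and 76.1% of cells, the low group in 23.9% and 30.1%. The nuclear RNAs NEAT1 and MALAT1 together were 9.09 and 6.63 times higher in the low group, mitochondrial genes 2.17 and 1.67 times. Depth differed too: UMIs per cell before thinning were 19906 and 20621.5 in the low group, against 14088 and 13268 in the high group. Genes per cell were 4052 and 3913.5 against 2780 and 2546, and after thinning 2652 and 2526 against 2362 and 2218. The 152 other chromosome 20 reference genes were at 0.96 (0.94 to 0.98) and 0.88 (0.86 to 0.90) of their level in the high group. Some other chromosomes differed more: chromosome 5 was lowest, at 0.80 and 0.78, and chromosome 20 was at rank 6 and 3 of 23. How much of the unadjusted dose goes with cell state was not separated out at this step, and copy number was not measured.

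For this reason, and after these values had been seen, each quantity was adjusted for the first 10 principal components of the cells computed from genes of all other chromosomes. This removes from each quantity what is linear in those components. The summed members then correlated with the other 152 chromosome 20 genes, none of them in the list, at r = 0.38 in the control and 0.34 in the squashed library, against 0.09 and 0.18 before. The covariance scaled by both means corresponds to a shared coefficient of variation of 11.6% and 11.5%. The r stayed between 0.25 and 0.46 in the control library and between 0.22 and 0.44 in the squashed library over 13 alternatives, including each phase alone and 5 or 20 components. The sums of the 2 arms' members were still weakly related, at 0.15 and 0.13.

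Between the low and the high group by adjusted member dose, the other chromosome 20 genes were at a ratio of 0.84 (0.83 to 0.86) in control and 0.83 (0.81 to 0.85) in squashed cells. That was the lowest of 23 chromosomes in both, and the next, chromosome 18, was at 0.98 and 0.95. The other chromosomes lie near 1 in part by construction, since their genes set the components. Both arms took part: 20p was at 0.85 and 0.84 and 20q at 0.84 and 0.82. Cells called G2/M were 57.2% and 57.6% of the low and high control group, and 52.2% and 51.3% of the squashed groups. Low over high group, ribosomal protein genes were at 1.00 and 1.02, and NEAT1 and MALAT1 together at 1.23 and 0.99. G2/M genes were at 1.06 (1.04 to 1.08) and 1.05 (1.02 to 1.07), and mitochondrial genes at 1.03 and 0.94. Some difference in state was thus left after adjustment.

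**Figure D4:**
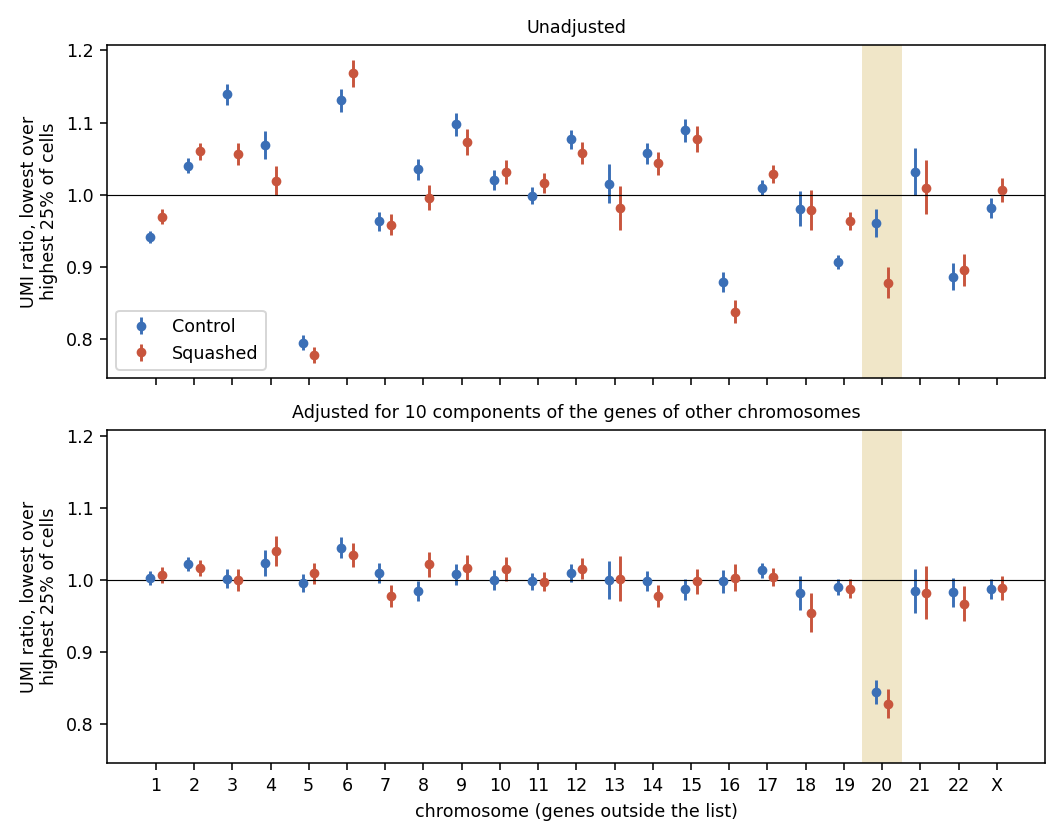
Summed UMIs of reference genes outside the list, low over high group of cells by the dose of the 36 genes, for each chromosome and library, with 95% counting intervals; the upper panel is unadjusted and the lower adjusted. Chromosome 20 (shaded) lies at 0.96 and 0.88 among lower chromosomes in the upper panel, and alone at 0.84 and 0.83 in the lower.

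In a further description the members' own sum did not set the groups. It used the 25% of cells lowest and highest in the other chromosome 20 genes, adjusted in the same way. The list was chosen with results of these same cells known, so this is no independent check. Here the 36 genes together were at 0.82 (0.81 to 0.84) in control and 0.82 (0.80 to 0.84) in squashed cells, low over high group. The ratio was under 1 for 34 of 36 genes in each library, where 48.6% and 49.6% of all measured genes were. Its whole interval was under 1 for 22 and 23 genes, where 6.67% and 5.98% of all were, and for 16 in both libraries (2.67% of all). It was above 1 for none of the 36, where 7.35% and 7.14% of all were. Genes of other chromosomes helped to set the components, so the contrast with all measured genes is partly by construction. The 36 also have higher counts than most genes, which narrows their intervals, and no matching on level was made. NAPB, with 13 and 5 UMIs in the control groups, was the gene over 1 in both libraries, and its intervals spanned 1.

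The 16 genes came from most roles. They were SNRPB, SNRPB2, RBM39 and PRPF6 of the spliceosome, NOP56, ESF1 and EIF6 of the nucleolus, PDRG1 and PFDN4 of protein folding, RPN2 and DPM1 of glycosylation, and ROMO1, CPNE1, YWHAB, CSE1L and UBE2V1. SNRPB was at 0.87 (0.83 to 0.92) and 0.83 (0.77 to 0.88), EIF6 at 0.78 (0.70 to 0.87) and 0.73 (0.65 to 0.82), and RPN2 at 0.72 (0.63 to 0.81) and 0.71 (0.60 to 0.83). PDRG1 was lowest among those 16 in the squashed library, at 0.53 (0.34 to 0.80), and at 0.68 (0.49 to 0.94) in the control library. PPDPF was at 0.79 (0.70 to 0.88) in the control library, and with 57 and 61 UMIs at 0.96 (0.65 to 1.39) in the squashed library, where its depth could not show such a difference.

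By single-gene correlation, 25 of 36 control members and 18 of 36 squashed members passed the 95th percentile line against the other chromosome 20 genes, where 7.37% and 7.05% of all measured genes did. The 36 have higher counts than most genes (median 127.1 CPM among the measured against 47.5 CPM for all in the control library), and no matching on level was made. Genes of other chromosomes helped to set the components, so the line drawn from them lies low partly by construction. In both libraries 13 passed, where 2.69% of all did, and 32 of 36 had a positive r in both, where 27.1% of all had. All of these r are small, from -0.04 (NAPB) to 0.18 (YWHAB) in the control library and from -0.02 (ADNP) to 0.14 (EIF6) in the squashed library, and weak correlations of this size in single genes are no finding.

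The genes passing in both were SNRPB, ESF1, SNRPB2, PDRG1, EIF6, ERGIC3, CPNE1, ROMO1, NDRG3, RPN2, YWHAB, CSE1L and UBE2V1. IDH3B, CRNKL1, NAPB, SRSF6, ADNP and CSTF1 passed in neither. ERGIC3 had -0.07 and -0.05 with the other chromosome 20 genes before adjustment and 0.09 and 0.13 after it, and YWHAB 0.12 and 0.07 before and 0.18 and 0.12 after. With the short arm's members, adjusted, ERGIC3 had -0.01 and 0.08 and YWHAB 0.07 and 0.04. DYNLRB1, a dynein light chain, and DDX27 passed in the control library only (0.15 and 0.13, against 0.03 and 0.02 in the squashed library); the difference between libraries was not tested. Against the other arm's members alone, 17 and 8 of 36 passed, where 5.73% and 6.29% of all genes in the control library and 5.64% and 6.09% in the squashed library did. Only SNRPB, AHCY and DYNLRB1 did so in both, where 0.649% of all passed in both for the 20p sum and 2.04% for the 20q sum. This line, too, was drawn from genes that helped to set the components.

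**Figure D5:**
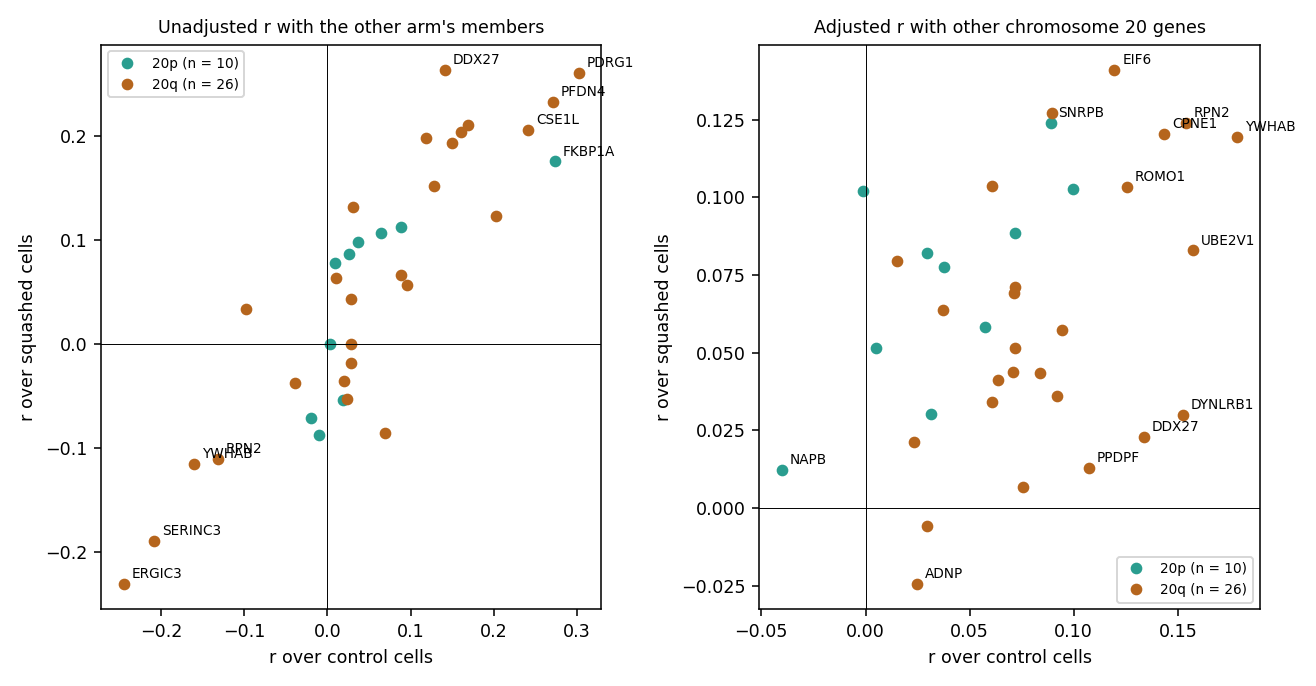
Pearson r over cells for each of the 36 genes, control (n = 1190) against squashed (n = 906): left, unadjusted r with the summed members of the other arm; right, adjusted r with the other chromosome 20 genes. On the left PDRG1 and ERGIC3 mark the ends at 0.30 and -0.24 in the control library; on the right 32 of 36 genes are above 0 on both axes, all at small values.

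After adjustment the genes most like the member dose changed. The 10 highest were RPS21, TMSB4X, ATP5F1E, SLC25A6, DSTN, PSMA7, ZFAS1, XRN2, EIF2S2 and GSTP1, with a mean r from 0.24 (RPS21) to 0.13 (GSTP1), and 7 of them lie on chromosome 20. TMSB4X and SLC25A6 lie on the X chromosome and GSTP1 on chromosome 11. Of the top 100, 23 in the control and 22 in the squashed library were on chromosome 20. Genes of other chromosomes helped to set the components, so this rise is partly by construction. AURKA was no longer among the 10 (0.05 and 0.07), and TPX2, a spindle assembly factor of chromosome 20, had 0.004 and -0.01.

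The members' complex partners on other chromosomes had small median r after adjustment, and not every list had a relation before it. The 26 measured spliceosome partners had a median r with the member dose of 0.07 and 0.04 unadjusted and -0.01 and 0.01 adjusted, and the 10 nucleolar partners 0.21 and 0.20 unadjusted and -0.003 and 0.02 adjusted. SNRPF, which joins SNRPB in the Sm ring, went from 0.36 and 0.32 to 0.03 and 0.01. NOP58, the partner of NOP56, went from 0.30 and 0.27 to -0.01 and 0.04. The oligosaccharyltransferase partners had medians of -0.02 and 0.03 unadjusted and 0.01 and 0.02 adjusted. Prefoldin and IDH3 partners had 0.14 and 0.11, then 0.02 and -0.01. For importin and YWHA family partners the medians were 0.10 and 0.06, then -0.02 and -0.02. Measured chromosome 20 genes outside the list had medians of 0.05 and 0.04 adjusted. Since the partners' genes helped to set the components, their fall is partly by construction.

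Other chromosomes also had arms that moved together. With the same adjustment made for each chromosome in turn, 20p and 20q reference genes had r = 0.35 in the control library, rank 2 of 18 chromosomes after chromosome 16 (0.50), and 0.33 in the squashed library, rank 7 of 18. Along chromosome 20, every pair among 20p and 3 stretches of 20q was positive after adjustment, from 0.19 to 0.32 in the control library and from 0.13 to 0.30 in the squashed library. Shared movement of the arms is thus not particular to chromosome 20 in these cells. In RNA counts, copy number and a regulation common to the chromosome cannot be told apart, and no DNA was analysed here.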

How the data were processed

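Single-cell RNA was counted in 2 libraries of A549 cells, grouped by the treatment label. The deposited files hold whole-number counts of UMIs per gene and barcode, without normalization, made by the authors with Cell Ranger against a GRCh38 reference. The file headers give its version as 4.0.0, whereas the series' design text gives 5.0.1. The submitters' processing notes also list R 4.3.2. In all, 0 columns of the tables were left unused for want of a sample.

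The 36 genes, their roles and the partner lists were chosen with earlier results of these data known. All 36 are named, with the 10 genes most like the member dose (at least 50 CPM in both libraries), partners in complexes, and up to 5 chromosome 20 genes least like it (at least 100 CPM). Cells needed 10000 UMIs, 500 genes and at most 20% mitochondrial UMIs. The counts summed over them were 22991157 and 17633796. For values per cell, each was thinned to 10000 UMIs with a fixed seed. Ratios are log2 of CPM with a prior of 0.5 count. Phases came from scanpy 1.11.5, and Scrublet marked 14 and 11 of these cells as doublets, which the main values include and an alternative omits. The adjustment for 10 components (5 and 20 as alternatives) was added after the data had been seen. Each group is 1 library, so no p-value was computed. TMM factors came from edgeR 4.0.16 in R 4.3.3. Other tools were scipy 1.17.1, matplotlib 3.10.9, pandas 2.3.3 and numpy 2.4.6 in Python 3.11.15. The steps were tested on simulated data. Intervals rest on UMI counts and cover counting error only.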

Additional observations from a re-analysis of the deposited data

How the results depend on the processing

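No paired analysis was possible because each group is 1 library; for the same reason no replicate could be left out. Unless said otherwise, values are given as control and squashed. PPDPF, FKBP1A and ROMO1 kept their direction and stayed past 1.5-fold in 9 of 9 alternatives. In each alternative 1 choice was changed, except that the minimum of UMIs per cell and the depth of thinning were changed together; those with adjustment for components were chosen after seeing the data. The cause of each change below was not tested.

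The correlation of the 20p and 20q members was 0.0772 and 0.0228 in cells with at least 5000 UMIs thinned to that number, 0.28 and 0.28 with 20000, 0.21 in control without thinning, -0.00337 (reversed) and 0.0209 at 10% mitochondrial UMIs or less, 0.25 and 0.27 in S, 0.25 and 0.28 in G2/M, 0.44 and 0.46 over all UMIs, and 0.20 in control without SNRPB. The members following the other arm numbered 4 and 10 at 20000 UMIs, 4 and 6 at 10% mitochondrial UMIs or less, 5 in control G1, 1 in control S, 11 and 7 in G2/M, 4 and 8 over all UMIs, and 0 and 0 at the 99th percentile. With 5 components 18 followed in control, with 10 components 17 and 8, and with 20 components 12 and 6. Except for 10 components, the share of all measured genes past the line was not counted in these alternatives. Their counts therefore have no background beside them.

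For the other chromosome 20 genes, low over high group, the ratio was 0.91 in squashed cells at 5000 UMIs, 0.94 and 0.79 at 20000, 0.84 in squashed cells without thinning, 0.90 and 0.84 at 10% mitochondrial UMIs or less, 0.87 and 0.92 in G1, 0.83 in control S, 0.91 in control G2/M, 0.87 and 0.80 over all UMIs, and 0.91 in control without SNRPB. Adjusted for 5 components it was 0.84 and 0.82, for 10 components 0.84 and 0.83, and for 20 components 0.88 in control. Each of these stayed under 1.

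The adjusted correlation of members with other chromosome 20 genes was 0.25 and 0.22 at 5000 UMIs, 0.46 and 0.44 at 20000, 0.45 and 0.43 without thinning, 0.45 and 0.43 in S, 0.31 in control G2/M, and 0.31 and 0.27 with 20 components. The members past the line numbered 15 and 10 in G1, 5 and 2 in S, and 13 and 11 in G2/M, where fewer cells were fitted. The share of all measured genes past the line was not counted within a phase.

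The median share was 0.46% in squashed cells at 5000 UMIs, 0.45% in control at 20000, 0.57% and 0.53% at 10% mitochondrial UMIs or less, 0.37% and 0.36% in G1, 0.46% and 0.43% in S, 0.58% and 0.57% in G2/M, 0.41% and 0.40% without SNRPB, and 0.48% in control without PPDPF. Low dose was found in 19.2% of control cells at 5000 UMIs, 12.0% of squashed cells at 20000, 10.8% of control cells at 10% mitochondrial UMIs or less, 13.6% and 12.7% in S, 9.09% and 13.3% in G2/M, 22.7% and 21.3% over all UMIs, 12.5% and 12.1% under 0.70, and 20.7% and 21.4% under 0.80. Members at least 1.5-fold higher numbered 1 of 32 in all kept cells (at least 1000 UMIs), where 3.38% of all genes were. Those lower numbered 5 of 31 in G1 and 5 of 32 in S, where 21.1% and 17.3% of all were, so neither is above the background. Depth limits every value per cell, at a median of 50 and 48 member UMIs.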
